A study of Homo sapiens with 3 samples.

Results

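The 36 genes described here encode the transporters and enzymes of glycolysis and a set of genes that respond to low oxygen. They were picked by symbol from a list drawn up with earlier results of these data known. Of the 22613 genes in each library 35 of the 36 are listed, and 33 had a mean of at least 1 FPKM (fragments scaled to transcript length and library size) over the 3 libraries. SLC2A3 and CA9 were below that level, and SLC16A3 was not analysed here. The 3 libraries are RNA sequencing of LNCaP-abl, a line derived from LNCaP prostate cancer cells that grows without androgen, here kept in medium whose serum was stripped of steroids. RNA was taken 72 h after lipid transfection of pooled siRNAs to E2F1 (siE2F1, 1 library) or of control siRNA (control 0 and control 1, 2 libraries). E2F1 is a transcription factor best known for driving genes of S phase entry. The study asked which genes change when it is silenced.

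Glycolysis splits glucose into pyruvate in the cytosol, and lactate dehydrogenase and monocarboxylate transporters then turn pyruvate into lactate and move it across the plasma membrane. Hypoxia-inducible factor, a pair of HIF1A or EPAS1 with ARNT, is destroyed in oxygen after hydroxylation by the EGLN enzymes and the action of VHL. In low oxygen it accumulates and raises most glycolytic enzymes together with genes for blood vessel growth, pH control and mitophagy. Many tumour lines use glycolysis in oxygen as well.

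The targeted gene was at 1.68 FPKM in the siE2F1 library, against 10.6 and 10.6 FPKM in control 0 and control 1. The prostate lineage gene HOXB13 was expressed (94.6 FPKM in siE2F1, against 122.9 and 118.9 in the controls). KLK3, which encodes PSA, was near 0 in each library (0.156 FPKM, against 0.152 and 0.0531). Summed over the 3 listed leukocyte markers the level was 9.94 FPKM in siE2F1, against 9.97 and 9.96 FPKM in the controls. CD68 (5.67 FPKM in siE2F1) and LYZ (3.84 FPKM) made up most of that sum and were slightly above both controls. PTPRC was below both, at 0.423 FPKM in siE2F1, against 0.842 and 1.15 FPKM. The 2 listed fibroblast and endothelial markers summed to 1.44, against 1.71 and 1.64 FPKM. Without read counts, depth is unknown. No replicate exists for siE2F1. Whether control 0 and control 1 came from separate cultures, or from different control siRNAs, is not in the labels. The spread between these 2 samples may therefore be technical. The p-values rest on that spread alone, with each gene's own spread combined with that of other genes. In bulk RNA, fewer cells of a type and less RNA per cell cannot be told apart.

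In siE2F1, 18 of the 23 tested genes of glycolysis and lactate handling were below both controls, as were 6 of the 10 tested HIF and hypoxia-responsive genes; the difference between these groups was not tested. Of the 33 members tested, 24 were below both controls in siE2F1, a position held by 39.7% of all 14401 genes tested. ADM, among these 24, met the mean of 1 FPKM only through the controls. Another 5 were above both, against 43.8% of all genes, and 4 lay between the controls. Their median log2 fold change, siE2F1 minus the control mean of log2(FPKM + 1), was -0.23, against 0.01 over all genes tested. All differences below are on that scale, where low genes show less than their true fold. Against control 0 alone the median was -0.18 and against control 1 alone -0.29, because the controls themselves differed for these genes. Control 0 minus control 1 had a median of -0.08 over the members, against -0.002 over all genes. Control 0 was the lower one for 25 of the 33, against 50.6% of all genes. Because the members were chosen with earlier results of these data known, these counts and medians are descriptive and test nothing.

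**Figure D1:**
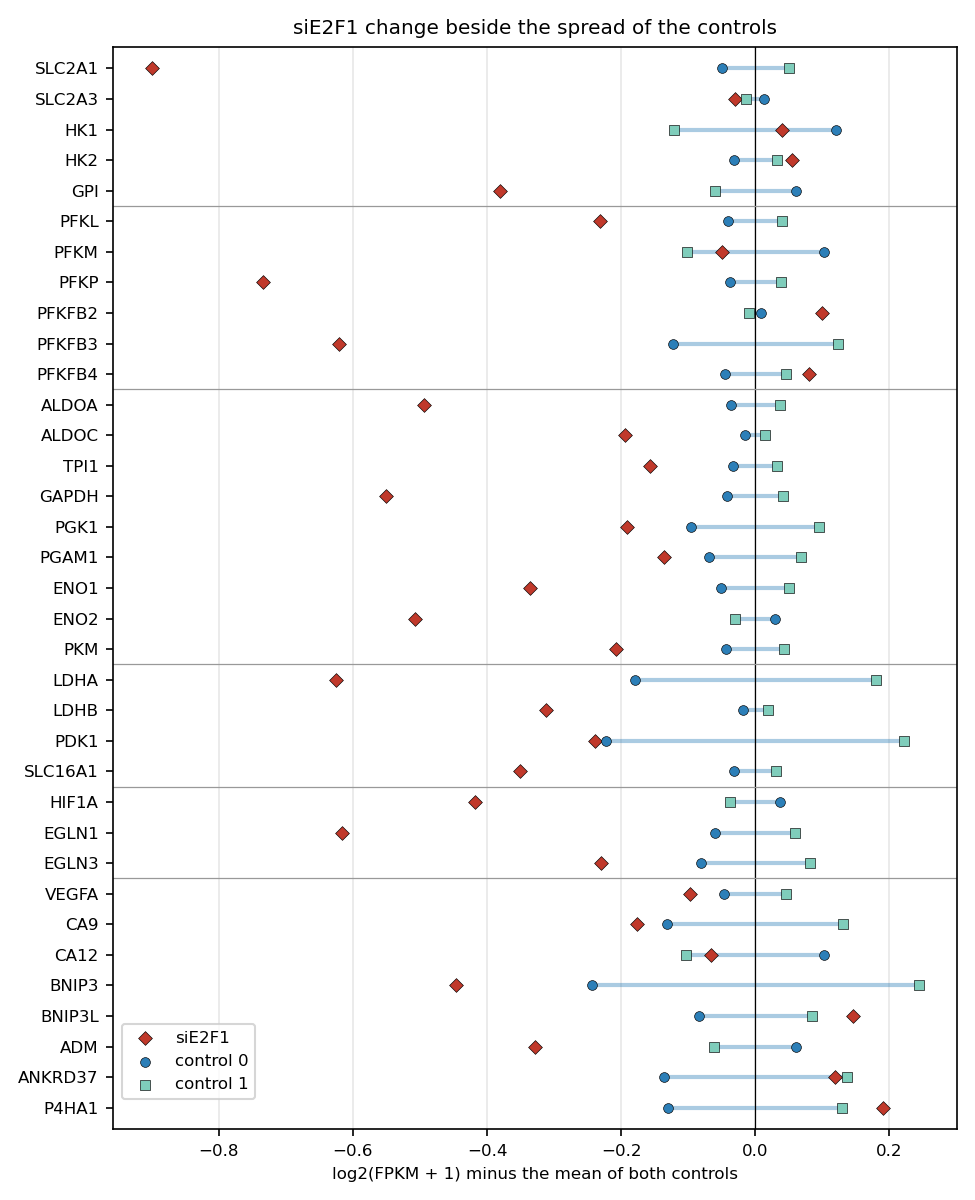
Each row is 1 of the 35 listed members, grouped by role from glucose uptake at the top to hypoxia-responsive genes at the bottom. The horizontal axis is log2(FPKM + 1) minus the mean of both controls; diamonds are siE2F1, circles control 0 and squares control 1, and the bar joins the controls. SLC2A1 at -0.90 and PFKP at -0.73 lie farthest to the left, and the widest control bars belong to BNIP3 and PDK1.

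No member passed limma over all 14401 genes at an adjusted p of 0.05 (0 lower and 0 higher, against 0.104% and 0.312% of all genes), and the members' adjusted p ran from 0.111 to 0.869. At an unadjusted p under 0.05, 12 members were lower and 0 higher, against 14.9% and 13.5% of all genes. When the 473 small nucleolar, small nuclear and micro RNA genes were left out (prior degrees of freedom 3.19, against 1.69 over all genes), 6 members passed, all lower: SLC2A1, PFKP, GAPDH, EGLN1, ENO2 and ALDOA. In that fit 6.36% of the 13928 genes passed lower and 4.17% higher. No member was 2-fold or more beyond both controls, a distance reached below by 0.833% and above by 0.743% of all genes tested. The siE2F1 change was larger than the difference between the controls for 22 of the 33 members, a share close to the 70.2% of all genes.

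The promoters of 5 members are shown because they belong to the genes that the results turn on: the transporter farthest below the controls (SLC2A1), the most abundant enzyme (GAPDH), the members with wide control differences (LDHA and BNIP3), and a hypoxia-responsive gene that lay between the controls (ANKRD37). Each run is the 250 bases before a RefSeq start site on GRCh38.p14, a later build than the hg19 used for the expression values, written 5′ to 3′ on the gene's strand. Capitals mark ACGTG, the core of hypoxia response elements, and the E2F motif forms TTTCGCGC and TTTGGCGC, each searched on both strands. An ACGTG within the palindrome CACGTG, the E-box bound by MYC and MAX, matches on both strands.
SLC2A1, chr1:42958869-42959118, minus strand: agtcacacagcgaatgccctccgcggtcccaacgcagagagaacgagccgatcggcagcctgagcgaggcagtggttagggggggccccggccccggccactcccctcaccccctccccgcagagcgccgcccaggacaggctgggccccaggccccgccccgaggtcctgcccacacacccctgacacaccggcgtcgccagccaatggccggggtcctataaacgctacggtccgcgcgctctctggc
GAPDH, chr12:6535014-6535263, plus strand: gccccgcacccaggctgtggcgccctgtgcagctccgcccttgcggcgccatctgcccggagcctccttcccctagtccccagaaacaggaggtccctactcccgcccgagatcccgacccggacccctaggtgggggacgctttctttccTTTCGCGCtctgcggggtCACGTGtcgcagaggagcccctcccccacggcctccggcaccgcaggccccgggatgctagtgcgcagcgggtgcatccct
LDHA, chr11:18394313-18394562, plus strand: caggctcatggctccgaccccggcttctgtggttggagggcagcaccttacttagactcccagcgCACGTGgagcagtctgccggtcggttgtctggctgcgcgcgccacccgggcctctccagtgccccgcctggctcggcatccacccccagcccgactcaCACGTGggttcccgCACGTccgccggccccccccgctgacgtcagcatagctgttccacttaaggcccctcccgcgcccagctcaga
BNIP3, chr10:131981924-131982173, minus strand: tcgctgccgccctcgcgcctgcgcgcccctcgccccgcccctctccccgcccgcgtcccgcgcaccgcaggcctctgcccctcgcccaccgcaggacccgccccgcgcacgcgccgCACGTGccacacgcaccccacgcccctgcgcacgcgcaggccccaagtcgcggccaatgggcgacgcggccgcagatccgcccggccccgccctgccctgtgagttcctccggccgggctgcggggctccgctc
ANKRD37, chr4:185396591-185396840, plus strand: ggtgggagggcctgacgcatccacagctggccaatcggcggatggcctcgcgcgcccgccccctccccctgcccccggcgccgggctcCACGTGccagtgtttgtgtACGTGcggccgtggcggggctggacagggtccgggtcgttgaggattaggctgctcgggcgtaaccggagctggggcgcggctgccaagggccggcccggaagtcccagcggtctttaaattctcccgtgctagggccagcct
Promoter windows were found for 30 of the 35 listed members, 53 windows in all because some genes have several start sites. ACGTG was present in 21 of the 53 windows (39.6%), those of 18 genes, against 18.5% of all 35116 windows of that length. CACGTG, which contains it, was present in 15.1% of the members' windows and in 6.34% of all. Either E2F form was present in 1 of the 53 windows (1.89%), that of GAPDH, against 0.968% of all windows. The SLC2A1 window held none of these motifs, and LDHA has a further window not shown. A match describes the letters only.

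Among the transporter and enzymes that bring glucose in and commit it, SLC2A1 and GPI were lower and the hexokinases were not. SLC2A1, the basal glucose transporter GLUT1, was at 4.88 FPKM in siE2F1, against 9.60 and 10.4 FPKM in control 0 and control 1. Its log2 fold change of -0.90 (SE 0.0794; limma adjusted p = 0.111, and 0.0299 without small RNA genes) was the largest in size among the members, and its controls differed by -0.10. GPI, which isomerises glucose 6-phosphate, was at 81.1 FPKM, against 110.5 and 101.5 FPKM (log2 fold change -0.38, controls 0.12 apart). HK1, the broadly expressed hexokinase, was at 38.3 FPKM, between the controls at 40.6 and 34.1 FPKM. HK2, the hexokinase induced by growth signals and hypoxia, was at 3.88, against 3.60 and 3.81 FPKM. The siE2F1 value of HK2 was 0.02 log2 units above the nearer control, less than the 0.06 between them. SLC2A3, the high-affinity transporter GLUT3, was at 0.400 FPKM, against 0.443 and 0.416 FPKM, too low to test.

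At the phosphofructokinase step, which commits sugar to glycolysis, the 3 subunit genes behaved differently. PFKP, the platelet isoform, was at 4.25 FPKM in siE2F1, against 7.49 and 7.96 FPKM in the controls (log2 fold change -0.73, SE 0.0726; limma adjusted p = 0.111, and 0.0350 without small RNA genes). PFKL, the liver isoform, was at 47.2, against 54.0 and 57.2 FPKM (-0.23). PFKM, the muscle isoform, was at 56.3 FPKM, between the controls at 62.6 and 54.2 FPKM. The PFKFB enzymes, which make and break fructose 2,6-bisphosphate, the main activator of phosphofructokinase, also parted. PFKFB3, the isoform with the highest kinase over phosphatase activity, was at 1.53 FPKM, against 2.57 and 3.23 FPKM. Its log2 fold change of -0.62 was larger in size than the control difference of -0.25, and was -0.87 with a pseudocount of 0.1. PFKFB2 was at 14.4, against 13.5 and 13.3 FPKM (0.10), and PFKFB4 at 2.63, against 2.32 and 2.54 FPKM (0.08), each above both controls. Neither of these small differences passed.

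All 9 enzyme genes from aldolase to pyruvate kinase were below both controls, with log2 fold changes from -0.55 for GAPDH to -0.14 for PGAM1 and a median of -0.21. GAPDH, glyceraldehyde 3-phosphate dehydrogenase, was at 1620.5 FPKM in siE2F1, against 2307 and 2445 FPKM in the controls (SE 0.0852; limma adjusted p = 0.114, and 0.0379 without small RNA genes). It ranked 22nd of all listed genes in siE2F1, against 11th and 10th in control 0 and control 1. ALDOA, the main aldolase, was at 461 FPKM, against 633 and 666 FPKM (-0.49, without small RNA genes adjusted p = 0.0403 in limma). ENO2, the neuronal enolase, was at 32.4, against 47.4 and 45.5 FPKM (-0.51, likewise 0.0396). ENO1, the ubiquitous enolase, was at 342, against 417 and 447 FPKM (-0.34), which passed in neither fit.

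The other enzymes of this stretch were lower by less. PKM, pyruvate kinase of muscle and most tumours, was at 369, against 414 and 440.0 FPKM (-0.21). ALDOC, the brain aldolase, was at 30.6, against 34.8 and 35.5 FPKM (-0.19). TPI1, triose-phosphate isomerase, was at 478, against 521 and 545 FPKM (-0.16). For PGK1, the first ATP-forming kinase of the pathway, the value was 186, against 199 and 227 FPKM, a log2 fold change of -0.19 about equal in size to the control difference of -0.19. PGAM1, phosphoglycerate mutase, was at 222, against 233 and 256 FPKM, and its -0.14 was no larger than the control difference of -0.14. The 9 genes summed to 3742 FPKM in siE2F1, against 4806 and 5107 FPKM in the controls, which is 0.783% of the summed FPKM of all listed genes, against 1.01% and 1.07%.

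Apart from ENO2 and ALDOC, these enzymes are among the most abundant transcripts of the cells. Abundant members were therefore also set beside other abundant genes. With the filter raised to a mean of 50 FPKM, a level chosen after seeing the data, 12 members remained and 11 of them were below both controls, against 40.8% of the 1568 genes at that level; 0 were above both, against 41.5%. The median log2 fold change was -0.28 for these 12 members and 0.006 for all genes at that level. PFKL, among the 11 below, met the raised filter only through the controls, at 47.2 FPKM in siE2F1, against 54.0 and 57.2 FPKM. Many glycolytic genes have processed pseudogenes that can share their reads. GENCODE 29 names 61 such copies of GAPDH, 39 of BNIP3 and 13 of PGAM1, so the values of these genes are less certain.

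**Figure D2:**
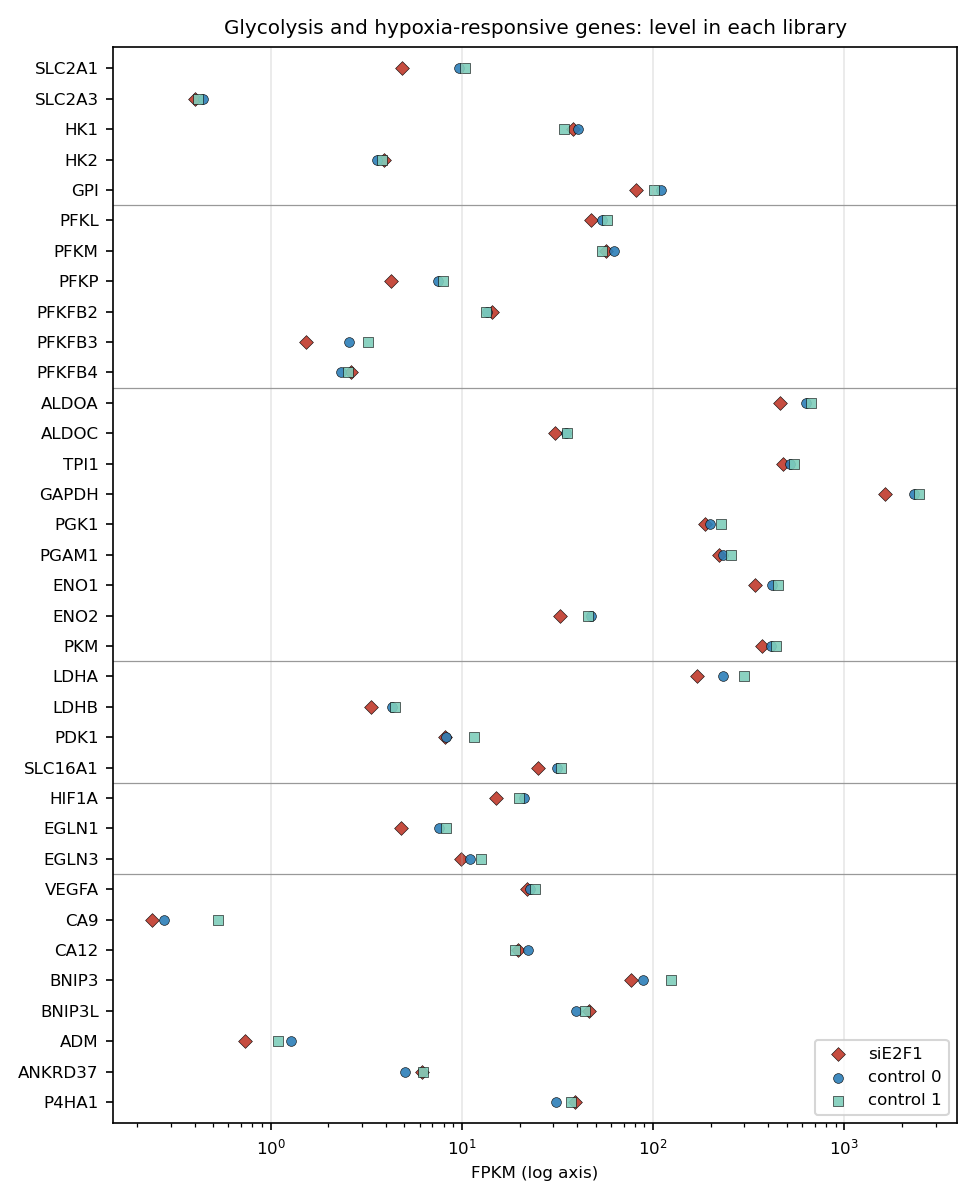
FPKM of each listed member on a log axis, with diamonds for siE2F1, circles for control 0 and squares for control 1, in the same order of roles. GAPDH stands at the top of the range at 1620.5 FPKM in siE2F1, and CA9 and SLC2A3 at the bottom, below 1 FPKM in each library.

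Genes that handle pyruvate and lactate were all below both controls, but for PDK1 by almost nothing. LDHA, the lactate dehydrogenase subunit that dominates in glycolytic tissue, was at 170.0 FPKM in siE2F1, against 232 and 298 FPKM in control 0 and control 1. The log2 fold change was -0.63 (SE 0.201; limma adjusted p = 0.193, and 0.0885 without small RNA genes), -0.45 against control 0 and -0.81 against control 1, since the controls were -0.36 apart. LDHB, the heart-type subunit, was at 3.33, against 4.30 and 4.44 FPKM (-0.31). SLC16A1, the lactate and pyruvate transporter MCT1, was at 25.0, against 31.4 and 32.8 FPKM (-0.35, controls -0.06 apart). PDK1, the kinase that shuts pyruvate dehydrogenase, was at 8.15, against 8.25 and 11.6 FPKM. Its control difference of -0.45 exceeded the log2 fold change of -0.24, and siE2F1 was 0.02 log2 units below control 0.

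The transcripts of HIF1A, EGLN1 and EGLN3 were below both controls. HIF1A, the oxygen-regulated subunit, was at 15.1 FPKM in siE2F1, against 21.0 and 19.9 FPKM in the controls (log2 fold change -0.42; limma adjusted p = 0.120, and 0.0514 without small RNA genes). HIF1A is controlled mainly through protein stability, which RNA does not show. EGLN1, also known as PHD2, the main oxygen sensor for HIF1A, was at 4.81, against 7.55 and 8.28 FPKM (-0.62, SE 0.0867; limma adjusted p = 0.112, and 0.0394 without small RNA genes). EGLN3, itself induced by hypoxia, was at 9.88, against 11.1 and 12.5 FPKM (-0.23, controls -0.16 apart), and passed in neither fit (limma adjusted p = 0.275 over all genes). The remaining EGLN gene, EGLN2, was at 15.6, against 14.0 and 15.5 FPKM (0.08).

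The hypoxia-responsive genes outside glycolysis were mixed. Of the 7 tested, 3 were below both controls and 2 above, against 39.7% and 43.8% of all genes, and 2 were between. Their median log2 fold change was -0.07 and their median control difference -0.17. BNIP3, a mitophagy receptor, was at 76.8 FPKM in siE2F1, against 88.5 and 124.5 FPKM, so the control difference of -0.49 was larger in size than the log2 fold change of -0.45. Its close relative BNIP3L was at 46.2, against 39.2 and 44.2 FPKM (0.15). P4HA1, a collagen prolyl hydroxylase subunit, was at 39.0, against 31.0 and 37.3 FPKM (0.19). Both of these were above both controls by 0.06 log2 units, less than their controls differed. ANKRD37, an ankyrin repeat protein used as a hypoxia marker, was at 6.18 FPKM, between 5.01 and 6.27 FPKM.

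Among the secreted and surface products, VEGFA, the angiogenic growth factor, was at 21.8 FPKM, against 22.6 and 24.1 FPKM (-0.10). ADM, the vasodilator adrenomedullin, was at 0.737, against 1.28 and 1.09 FPKM, a log2 fold change of -0.33 that became -0.61 with a pseudocount of 0.1. CA12, a membrane carbonic anhydrase, was at 19.6 FPKM, between 22.1 and 19.0 FPKM. CA9, the carbonic anhydrase used as a marker of hypoxic tumour, was at 0.238, against 0.277 and 0.532 FPKM, below the filter in all 3 libraries.

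**Figure D3:**
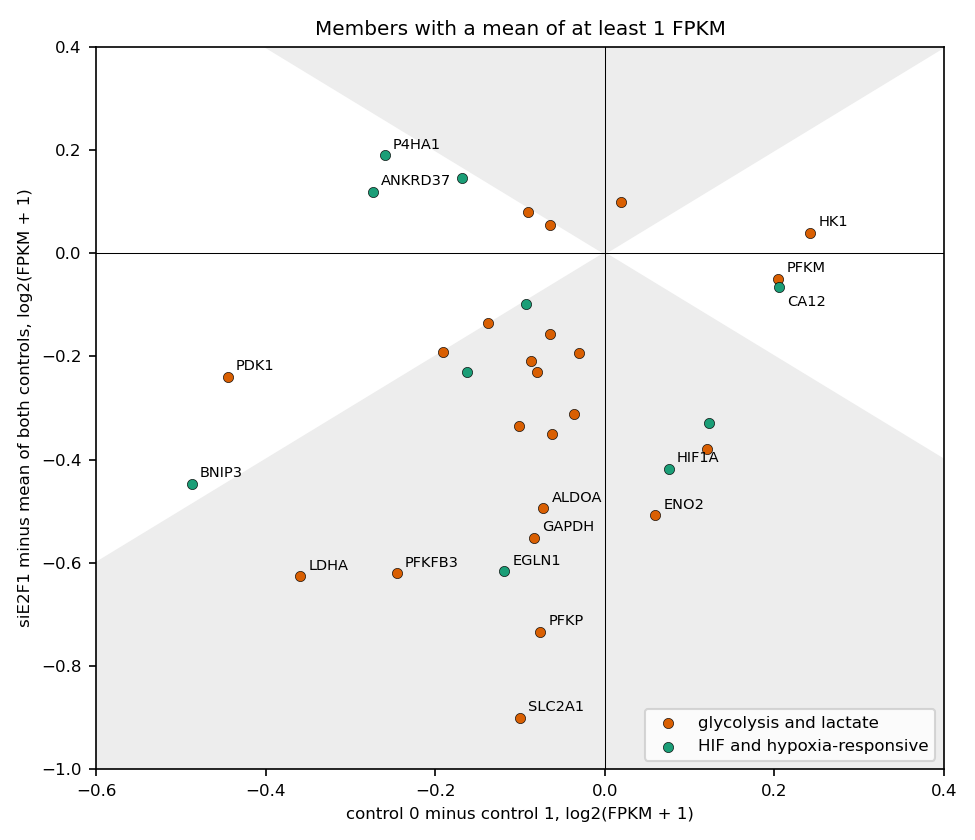
Each point is 1 of the 33 members tested, with control 0 minus control 1 on the horizontal axis and siE2F1 minus the mean of both controls on the vertical axis, in log2(FPKM + 1). In the grey area the siE2F1 difference is larger in size than the control difference, which holds for 22 members; BNIP3 at -0.49 and PDK1 at -0.45 on the horizontal axis lie outside it.

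Besides the shift of most members toward lower values in control 0, a few members differed widely between the controls. Control 0 and control 1 were at least 0.2 log2 units apart for 9 of the 33 members, against 13.8% of all genes without small RNA genes. Of these 9, 6 were lower in control 0: BNIP3, PDK1, LDHA, ANKRD37, P4HA1 and PFKFB3. In control 0, BNIP3 and PDK1 stood at 71.1% and 71.2% and LDHA at 77.9% of their levels in control 1. A gap as wide as that of BNIP3 was present for 2.01% of all genes without small RNA genes. HK1, PFKM and CA12 were the 3 with the higher value in control 0, by 0.24, 0.20 and 0.21. For HK1, PFKM, CA12 and ANKRD37 the sign of the siE2F1 difference depended on the control used. For SLC2A1, PFKP, GAPDH, ALDOA, ENO2 and EGLN1 the control difference was at most 0.12 in size. These are the members that passed without small RNA genes. Their spread in that fit depends in part on the control difference, so its small size adds no support. Members that did not pass, such as ALDOC (-0.03) and SLC16A1 (-0.06), differed as little. What sets the controls apart was not tested.

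The mix of isoforms differed between siE2F1 and the controls in some families and hardly in others. Since FPKM is per length, shares of a family's summed FPKM can be compared between genes. PFKP made up 3.94% of phosphofructokinase FPKM in siE2F1, against 6.04% and 6.67% in control 0 and control 1, while PFKM was at 52.2%, against 50.4% and 45.4%. PFKFB3 made up 8.23% of the summed FPKM of PFKFB2, PFKFB3 and PFKFB4, against 14.0% and 17.0%, and PFKFB2 77.6%, against 73.4% and 69.7%. SLC2A1 was at 92.4% of the pair with SLC2A3, which is too low to test, against 95.6% and 96.1%. EGLN1 was at 32.7% of the pair with EGLN3, against 40.6% and 39.8%. BNIP3 was at 62.4% of the pair with BNIP3L, against 69.3% and 73.8%. In the hexokinase, aldolase, enolase and lactate dehydrogenase families 1 gene held about the same majority in each library. HK1 was at 90.8%, against 91.9% and 90.0%, ALDOA at 93.8%, against 94.8% and 94.9%, ENO1 at 91.3%, against 89.8% and 90.8%, and LDHA at 98.1%, against 98.2% and 98.5%.

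**Figure D4:**
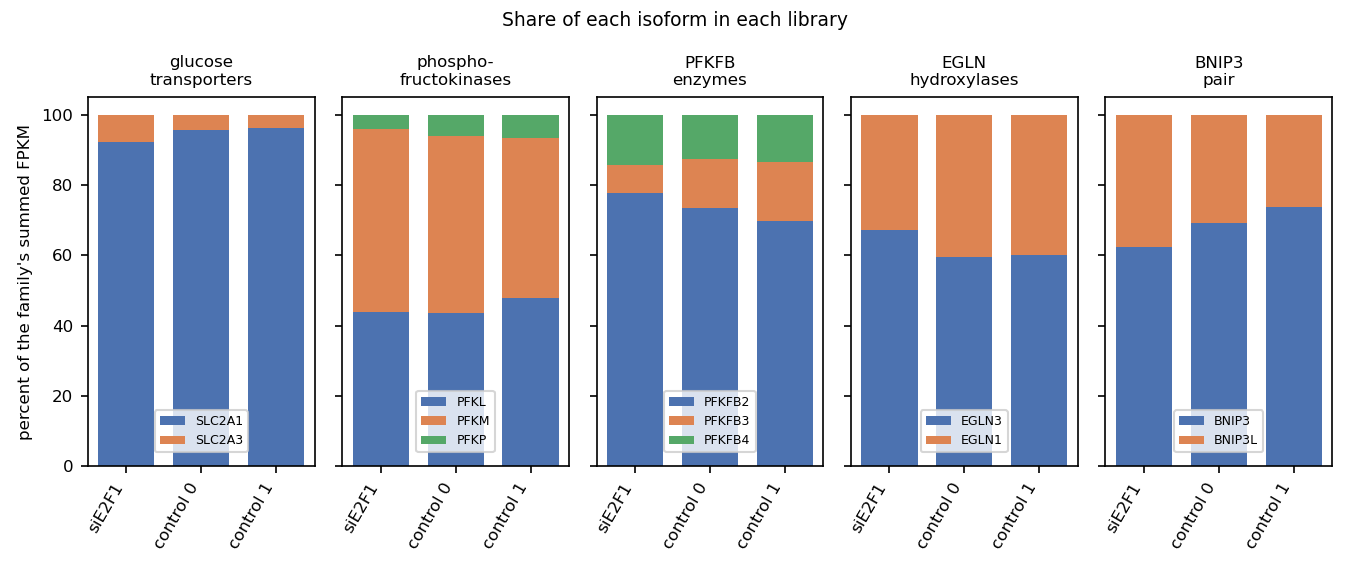
Stacked bars give each gene's percent of its family's summed FPKM in siE2F1, control 0 and control 1, for 5 families. The PFKP and PFKFB3 segments are smaller in siE2F1 than in either control, at 3.94% and 8.23%.

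Genes of neighbouring pathways lay on either side of the controls. Of 110 further genes in 7 lists 78 were tested. In siE2F1 28 were below both controls and 36 above (39.7% and 43.8% of all genes), and their median log2 fold change was 0.04. None passed limma over all genes (0, with 8 lower and 11 higher at an unadjusted p under 0.05, against 14.9% and 13.5% of all genes). Without small RNA genes 1 passed lower and 5 higher, against 6.36% and 4.17% of all genes. Among other isoforms and regulators of glycolysis, 6 of 13 were below both controls and 6 above. SLC2A12, the glucose transporter GLUT12, was at 5.64, against 3.10 and 3.13 FPKM (log2 fold change 0.69). PGAM2, the muscle phosphoglycerate mutase, was at 8.82, against 5.40 and 5.61 FPKM (0.59), and LDHD, which oxidises D-lactate, at 41.6, against 27.1 and 30.2 FPKM (0.52). These 3 passed without small RNA genes (limma adjusted p = 0.0358, 0.0367 and 0.0498), opposite in sign to SLC2A1, PGAM1 and LDHA.

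The pentose phosphate pathway branches from glucose 6-phosphate to make NADPH and ribose. It had 5 of 7 genes below both controls and 1 above, against 39.7% and 43.8% of all genes. Their median log2 fold change was -0.29. RPIA, ribose 5-phosphate isomerase, was at 6.16, against 9.67 and 8.47 FPKM, TALDO1, transaldolase, at 122, against 161 and 154 FPKM, and TKT, transketolase, at 118, against 155 and 149 FPKM. None of the 7 passed in either fit. Glycogen genes were split, 4 of 9 below and 4 above, near the shares of all genes. PGM2, a phosphopentomutase, was at 53.5, against 40.4 and 41.2 FPKM, and PYGL, liver glycogen phosphorylase, at 8.86, against 11.6 and 11.2 FPKM. Neither passed in either fit.

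Genes for mitochondrial entry of pyruvate had 4 of 11 below and 6 above, against 39.7% and 43.8% of all genes. DLAT, of the pyruvate dehydrogenase complex, was at 19.2, against 25.2 and 23.6 FPKM, PDPR, a regulator of its phosphatase, at 5.76, against 4.82 and 3.92 FPKM, and PDP2, a phosphatase of the complex, at 7.49, against 6.46 and 6.59 FPKM. In the gluconeogenesis list 2 of the 3 tested were below: PCK2, the mitochondrial PEP carboxykinase, was at 24.2, against 29.8 and 30.7 FPKM, and G6PC3 at 28.5, against 30.9 and 33.9 FPKM. PC, pyruvate carboxylase, was above, at 10.9, against 10.5 and 9.57 FPKM.

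Other parts of the HIF pathway had 2 of 11 below and 6 above, against 39.7% and 43.8% of all genes. ARNT, the constant partner of HIF1A, was at 15.8, against 11.7 and 11.8 FPKM (0.40; limma adjusted p = 0.0498 without small RNA genes), in contrast to HIF1A at -0.42. EP300, a coactivator, was at 17.4, against 14.2 and 11.7 FPKM, and RBX1, of the VHL ubiquitin ligase, at 56.7, against 62.1 and 63.6 FPKM. A second list of hypoxia-responsive genes had 5 of 24 below and 12 above, against the same shares of all genes. Its median log2 fold change was 0.06 and its median control difference -0.02. STC2, the secreted glycoprotein stanniocalcin 2, was at 11.0, against 16.6 and 15.6 FPKM (-0.51; limma adjusted p = 0.0415 without small RNA genes). WSB1 was at 35.6, against 26.2 and 27.4 FPKM, and CITED2, which competes with HIF1A for EP300, at 34.7, against 25.6 and 27.8 FPKM; neither passed.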

How the data were processed

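For each library the authors deposited a log2 FPKM value per gene. TopHat2 2.0.4 and Cufflinks 2.0.2 on hg19 are listed in the submitters' processing notes; parameters and annotation are not given in the sources used here. In these files the lowest value is log2 of 0.1, so FPKM was computed as 2 to the deposited value minus 0.1, which would be 0.1 FPKM too low if a minimum had been set instead. Once sorted, the libraries' values are within 0.0653 log2 units of each other, as quantile normalization would give, which would hide a change common to most genes.

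The 14401 genes averaging 1 FPKM or more were fitted on log2(FPKM + 1) with limma 3.58.1 in R 4.3.3 (empirical Bayes with a mean-variance trend, two-sided, Benjamini-Hochberg adjustment over all genes). The spread comes from the controls alone, with 1 residual degree of freedom, and siE2F1 is taken to vary as they do. The fit was also run on simulated data, with variances drawn from the fitted prior and the same variance for siE2F1 as for the controls. Such data cannot test whether the single siE2F1 library varies as the controls do. Groups came from sample titles. Small RNA genes are 473 tested genes whose names begin with SNOR, MIR, SCARNA or RNU, with host genes kept in. Other settings were a pseudocount of 0.1, no filter, minima of 5 and 50 FPKM, a common median, no trend and each control left out. The libraries already had the same median, so the common-median fit is the reported fit and adds no check.

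The members, the lists and the fit without small RNA genes were chosen with earlier results of these data known. Every member is accounted for; from each further list the 3 genes farthest beyond the nearer control are named, except items not reported here. Promoters are from RefSeq on GRCh38.p14.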

Additional observations from a re-analysis of the deposited data

How the results depend on the processing

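With a pseudocount of 0.1, no member with a mean of at least 1 FPKM changed the sign of its log2 fold change against the mean of both controls. The filters, the common median, the fit without trend and the removal of small RNA genes left each log2 fold change as it was. Those settings could therefore not change a sign. Against single controls, the sign for HK1, PFKM, CA12 and ANKRD37 depended on the control used. The count of members called was 0 under each alternative except without small RNA genes, where 6 members, 6 other pathway genes and 1467 genes in all passed. With a pseudocount of 0.1 limma called 18 of all genes tested, with no filter 0 (4859 at an unadjusted p under 0.05), and at 50 FPKM 0 (408 at an unadjusted p under 0.05), against 60 in the reported fit. A minimum of 5 FPKM left 3 members above both controls. At 50 FPKM, chosen after seeing the data, 11 of 12 members were below both controls, 0 above, and 9 differed by more than the controls. Fewer members enter these counts, and at 50 FPKM PFKL enters only through the controls. With a single control left out, 25 to 27 members were below the remaining control and 6 to 8 above it, and the median log2 fold change was -0.29 to -0.18. These are values with no test, since no residual degree of freedom remains. No paired analysis was possible because there is a single siE2F1 library, whose title gives no number to pair with a control. The cause of the change in calls without small RNA genes was not tested. Depth is unknown, so no counting error can be given.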

Other observations

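Several near copies and antisense partners of the members are listed in the files. PGAM4, a near-identical retrocopy of PGAM1, was at 59.7 FPKM in siE2F1, against 65.1 and 70.2 FPKM in control 0 and control 1. How reads were divided between these genes was not tested. The pseudogenes TPI1P2 (8.18, against 9.85 and 11.9 FPKM) and TPI1P3 (24.6, against 24.8 and 31.3 FPKM) were below both controls, as was TPI1. ENO1-AS1 was at 6.82 FPKM in siE2F1, against 0.0133 and 0.735 FPKM in the controls, the opposite direction to ENO1. Control 0 minus control 1 was -0.78 log2 units for ENO1-AS1. It met the mean of 1 FPKM only through siE2F1, where it is high, so its test below adds no support. HIF1A-AS2 was at 9.08, against 13.7 and 13.9 FPKM, the same direction as HIF1A. With a kit that keeps no strand, an antisense gene and its partner cannot be told apart where they overlap. None of these 5 genes passed limma in the fit of all 14401 genes. With small RNA genes left out, ENO1-AS1 and HIF1A-AS2 passed (limma adjusted p = 0.0368 for each) and the other 3 did not. These genes were named after their values were seen.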
